A study of Mus musculus with 12 samples.

Results

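The 10 genes described here load and build the DNA replication machinery of mouse cells: Mcm2, Mcm3, Mcm4, Mcm5, Mcm6 and Mcm7, Cdc6, Pcna, Rrm2 and Tyms. They were chosen by symbol, with earlier results of these data known. All 10 were present among 23235 entries measured in fetal liver and among 24421 measured in mouse embryonic fibroblasts (MEFs). RNA sequencing compared untreated homozygous Rpt2 G2A (Rpt2G2A/G2A) with wild-type (WT) mice in 2 settings. Fetal livers at E12.5 (embryonic day) gave 3 G2A and 3 WT libraries, which the labels describe as pairs of littermates. Immortalized MEFs gave 2 G2A and 3 WT libraries; the G2A MEF sample numbered 3 was not analysed here. The sources used here give neither the strain nor the origin of the MEFs. Since no label says whether each MEF library is a culture of its own, p-values measure only the spread between these samples. As background, Rpt2 is a proteasome ATPase encoded by Psmc1, and G2A replaces the glycine that carries its N-myristoyl lipid anchor. All groups compared within a tissue otherwise carry the same labels. G2A liver 3 and WT MEF 3 stood apart from their groups over all genes. The numbers of calls among the 10 genes and the lists are also given without them. Most medians and fold changes of the lists are given only with them.

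As background, a cell licenses its replication origins in late mitosis and G1. The origin recognition complex binds DNA, and Cdc6 and Cdt1 help it to load a ring of Mcm2 to Mcm7, the core of the replicative helicase. In S phase that helicase is activated, and PCNA clamps the DNA polymerases to the template. Ribonucleotide reductase, whose S-phase small subunit is Rrm2, and thymidylate synthase, encoded by Tyms, supply deoxynucleotides. Many of these genes are targets of the E2F transcription factors at the G1 to S transition. The fetal liver is at this age an organ of rapidly dividing erythroid progenitors.

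Promoter sequence is shown here for 4 of the 6 ring subunits, which hold letters of the E2F type, and for Rrm2, which does not. The RefSeq promoter table of build GRCm38.p6 (300 bases around each listed start) held 9 of the 10, and Mcm4 was not among them. It was searched on both strands, overlaps counted, for the E2F-type letters TTTCGCGC, TTTGGCGC, TTTCCCGC and TTTGCCGC. Of the 9 genes 5 held at least 1 of these, namely Mcm3, Mcm5, Mcm6, Mcm7 and Cdc6, against 2.6% of all 27025 genes in that table and 2.26% of its 32851 promoters. The letters CCAAT, the core of the NF-Y site, stood in 7 of the 9 and in 41.1% of all genes. The windows below run 5′ to 3′ on the strand of the gene, with E2F-type letters in capitals for the Mcm genes and CCAAT in capitals for Rrm2. Those of Mcm5 and Mcm6 are shown because matches on opposite strands overlap in them, those of Mcm3 and Mcm7 for a match downstream of the start (Mcm3 holds another there, TTTCCCGC on the opposite strand, outside the window), and Rrm2 because its promoter holds CCAAT and none of the E2F-type letters. They lie at chr8:75109336-75109387 (plus strand, Mcm5), chr1:128359725-128359835 (minus, Mcm6), chr1:20820263-20820285 (minus, Mcm3), chr5:138171849-138171878 (minus, Mcm7) and chr12:24708134-24708253 (plus, Rrm2).
Mcm5: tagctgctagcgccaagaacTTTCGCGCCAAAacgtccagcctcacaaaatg
Mcm6: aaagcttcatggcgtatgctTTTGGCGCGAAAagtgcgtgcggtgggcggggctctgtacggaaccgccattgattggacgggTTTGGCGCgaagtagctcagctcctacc
Mcm3: acttgggaagtTTTGGCGCcaag
Mcm7: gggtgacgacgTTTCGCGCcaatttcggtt
Rrm2: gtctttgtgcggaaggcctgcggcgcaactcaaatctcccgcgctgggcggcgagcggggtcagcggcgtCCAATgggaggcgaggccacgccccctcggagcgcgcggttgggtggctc
The capitals in Mcm5 join TTTCGCGC on the strand of the gene with TTTGGCGC on the opposite strand, and the first run of capitals in Mcm6 joins TTTGGCGC on the strand of the gene with TTTCGCGC on the opposite strand. A second TTTGGCGC lies nearer the start of Mcm6. The promoters of Mcm2, Pcna and Tyms held none of the E2F-type letters in this window. Mcm7 had 2 promoters in the RefSeq table. Its E2F-type letters lay in that at chr5:138171834-138172133, and that at chr5:138171217-138171516 held none. A match is a description of the sequence and not evidence of binding.

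In fetal liver the mRNA of each of the 10 genes was lower in all 3 G2A livers than in any WT liver. The differences were moderate, with log2 fold changes of -0.58 to -0.27 (SE 0.07 to 0.16) and a median of -0.36, while the median over all 12938 genes tested was 0.01. None of the 10 passed limma's test with Benjamini-Hochberg adjustment over all genes at 0.05, with adjusted p of 0.0950 to 0.161, so these differences are not called. In that test 1 gene was lower and 2 were higher, which is 0.00773% and 0.0155% of the genes tested. All 10 had an unadjusted p under 0.05, against 12.4% of genes that were lower at that level. G2A below WT without overlap, found for all 10, was found for 15.7% of all genes. Since the 10 genes were chosen with earlier results known, these shares describe them and are not an independent test. Fold changes are on the scale of log2(FPKM + 1), where FPKM is fragments per length of transcript and per depth of library, and the read depth of the liver libraries is unknown. In bulk tissue, fewer cells of a type and less RNA per cell cannot be told apart.

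The helicase subunits differed by similar amounts. Mcm2 (chr6:88833469-88848774, minus strand, build NCBIM37 as for all gene positions here) had 120.6, 112.7 and 138.5 FPKM in G2A livers 1, 2 and 3, against 144.7, 168.5 and 153.8 FPKM in WT livers 1, 2 and 3 (log2 fold change -0.33, SE 0.10, limma adjusted p = 0.140). Mcm3 (chr1:20793055-20810359, minus strand) had 111.7, 109.4 and 130.5 FPKM in G2A livers and 136.9, 160.6 and 154.1 FPKM in WT livers (-0.36, SE 0.09, adjusted p = 0.126). In both genes G2A liver 3 was the G2A library nearest to WT. Mcm4 (chr16:15623990-15637493, minus strand) had 93.3, 86.4 and 102.3 FPKM in G2A livers and 107.5, 121.0 and 112.6 FPKM in WT livers, the smallest log2 difference of the 10 (-0.27, SE 0.08, adjusted p = 0.142). Mcm5 (chr8:77633427-77652338, plus strand) had 91.0, 83.8 and 106.2 FPKM in G2A livers and 114.9, 131.9 and 129.2 FPKM in WT livers (-0.42, SE 0.10, adjusted p = 0.117). Mcm5 had the largest log2 difference of the ring subunits. Mcm6 (chr1:130228168-130256233, minus strand) had 161.6, 151.9 and 188.6 FPKM in G2A livers and 191.8, 219.1 and 205.3 FPKM in WT livers (-0.30, SE 0.10, adjusted p = 0.161). Mcm7 (chr5:138605811-138613650, minus strand) had 161.6, 153.8 and 184.6 FPKM in G2A livers and 202.5, 227.7 and 213.7 FPKM in WT livers (-0.37, SE 0.08, adjusted p = 0.113). The gap for Mcm6 between G2A liver 3 and WT liver 1 was the narrowest of these, 188.6 against 191.8 FPKM.

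Cdc6 (chr11:98769115-98785254, plus strand), the loader of the ring, had 27.5, 26.0 and 29.7 FPKM in G2A livers and 34.8, 40.6 and 33.2 FPKM in WT livers (log2 fold change -0.37, SE 0.09, limma adjusted p = 0.123). Its G2A livers lay within 4 FPKM of each other, and the WT livers above them. Pcna (chr2:132074898-132079050, minus strand), the clamp, had 448.6, 403.6 and 545.6 FPKM in G2A livers and 639.3, 672.7 and 628.6 FPKM in WT livers (-0.48, SE 0.11, adjusted p = 0.114). The mean for Pcna was 28.0% lower, at 466 ± 72.6 FPKM in G2A livers and 647 ± 23.0 FPKM in WT livers (SD, n = 3 each).

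Both enzymes of nucleotide supply were lower too. Rrm2 (chr12:25393106-25399011, plus strand) had 187.5, 170.1 and 260.3 FPKM in G2A livers and 288.5, 303.5 and 320.4 FPKM in WT livers (log2 fold change -0.58, SE 0.16, limma adjusted p = 0.132). This was the largest fold change of the 10, with the largest SE, and Rrm2 averaged 206 ± 47.8 FPKM in G2A livers and 304 ± 15.9 FPKM in WT livers (SD, n = 3 each). Tyms (chr5:30384742-30400157, minus strand) had 25.3, 26.5 and 29.3 FPKM in G2A livers and 34.4, 35.3 and 34.8 FPKM in WT livers (-0.36, SE 0.07, adjusted p = 0.0950). Tyms had the smallest p of the 10, and its WT livers spread least, 34.8 ± 0.44 FPKM.

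**Figure D1:**
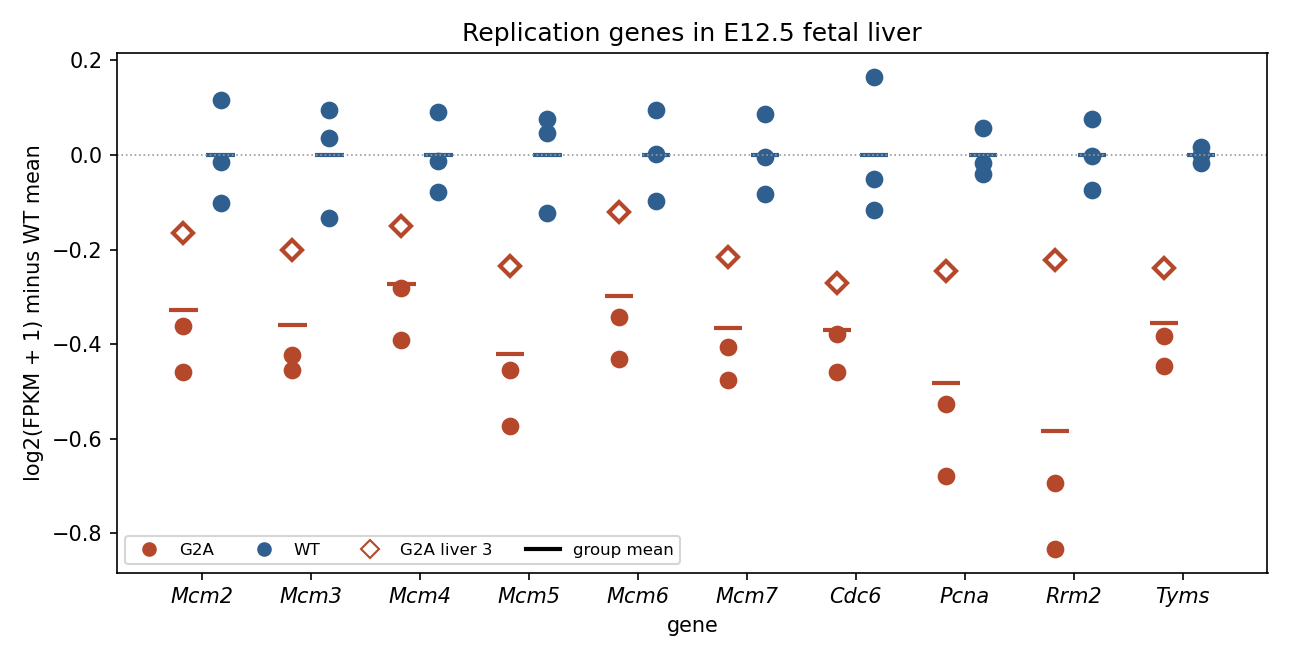
Each gene's log2(FPKM + 1) in each fetal liver library, minus the mean of the 3 WT livers (vertical axis), with G2A left of WT for each gene and bars at the group means. All 3 G2A livers lie below all 3 WT livers for each of the 10 genes, and G2A liver 3 (open diamond) is the highest G2A library in 10 of 10.

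The 10 genes varied together among the livers. G2A liver 3 was the highest G2A library for all 10, G2A liver 2 the lowest for 9 (for Tyms it was G2A liver 1), and WT liver 2 the highest WT library for 9 (for Rrm2 it was WT liver 3). A level of G2A liver 3 between the other G2A livers and the WT livers, found for all 10, was found for 9.3% of all genes. Such a level requires that G2A and WT livers do not overlap, and 15.7% of all genes were below WT without overlap. The comparison with 9.3% therefore repeats part of that separation. Averaged over the 10 genes, log2(FPKM + 1) relative to the WT mean was -0.43, -0.51 and -0.21 in G2A livers 1, 2 and 3, against -0.08, 0.08 and 0.00 in WT livers 1, 2 and 3. G2A liver 3 also stood apart over all genes, with a first principal component score of 7.91, beside -30.6 and -34.9 for G2A livers 1 and 2 and 13.3, 23.3 and 21.1 for the WT livers. Without this library all 10 genes passed at an adjusted p of 0.00977 to 0.0300, with log2 fold changes of -0.76 to -0.34, and 12.0% of all genes were then lower. With libraries weighted by limma all 10 passed as well, when 20.7% of all genes were lower. The weights were 6.22, 0.740 and 0.176 for G2A livers 1, 2 and 3. The weighted G2A level therefore rested mostly on G2A liver 1.

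None of the cell type markers passed limma's test in liver (smallest adjusted p = 0.0902, for Fn1 and Lum). Some were separated between genotypes like the 10 genes. Without overlap, 15.7% of all genes were below and 11.8% above WT. Of 10 erythroid markers tested, 3 (Gata1, Klf1 and Epor) were below WT in all G2A livers without overlap, and their list averaged -0.64, -0.80 and 0.03 in G2A livers 1, 2 and 3 relative to the WT mean on the log2 scale. Its summed level was 1874, 1622 and 3097 FPKM in G2A livers, against 2956, 2426 and 3386 FPKM in WT livers. Of 8 mesenchyme markers 5 (Col1a1, Col1a2, Col3a1, Lum and Dcn) were above WT in all G2A livers, and that list summed to 1386, 1997 and 984 FPKM in G2A livers, against 635, 449 and 663 FPKM in WT livers. The 10 replication genes were below WT in G2A liver 3 too, where the erythroid sum lay within the WT range. Hepatoblast markers averaged -0.28, -0.20 and 0.14 in G2A livers, with 1 of 11 below and 1 above WT without overlap, and defining genes such as Alb and Afp were high in every liver. Endothelial markers averaged 0.38, 0.42 and 0.12 in G2A livers, with 3 of 5 above, and macrophage markers 0.06, 0.00 and -0.18, with 2 of 6 above. The epithelial list was above WT for 5 of 6 genes and the fibroblast list, Fn1 among them, for 5 of 10. The skeletal muscle list overlapped for all 4. No listed marker measured in liver was at 0 in all libraries. The part of cell makeup in the differences of the 10 genes was not tested.

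**Figure D2:**
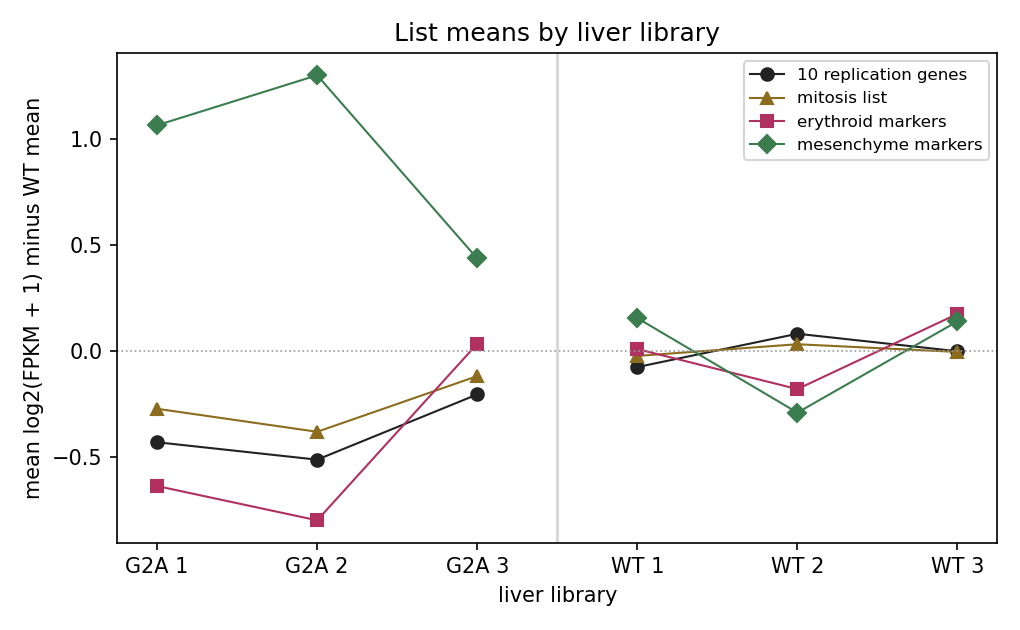
Mean log2(FPKM + 1) minus the WT mean (vertical axis) in the 3 G2A and 3 WT liver libraries, averaged over the 10 replication genes, the mitosis list, the erythroid markers and the mesenchyme markers. The replication genes are at -0.43, -0.51 and -0.21 in the G2A livers, while the erythroid markers are at -0.64, -0.80 and 0.03.

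In FPKM, which accounts for length, Pcna had the highest level of the 10 in both genotypes. In WT livers Pcna (647 ± 23.0 FPKM) was followed by Rrm2 (304 ± 15.9), Mcm7 (215 ± 12.6), Mcm6 (205 ± 13.7), Mcm2 (156 ± 12.0), Mcm3 (151 ± 12.2), Mcm5 (125 ± 9.17), Mcm4 (114 ± 6.81), Cdc6 (36.2 ± 3.88) and Tyms (34.8 ± 0.44; SD, n = 3 each). The neighbours Mcm7 and Mcm6, Mcm2 and Mcm3, Mcm5 and Mcm4, and Cdc6 and Tyms overlapped between WT livers. The 6 ring subunits, which form a complex with 1 copy of each, spanned a ratio of highest to lowest FPKM of 1.78, 1.84 and 1.84 in G2A livers 1, 2 and 3, against 1.88, 1.88 and 1.90 in WT livers. Their summed level was 740, 698 and 851 FPKM in G2A livers, against 898, 1029 and 969 FPKM in WT livers.

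In MEFs the same genes did not move together. Relative to WT, 4 genes (Mcm3, Mcm7, Cdc6 and Tyms) were higher in both G2A libraries than in any WT library, 1 (Pcna) was lower, and 5 overlapped. Above WT without overlap were 18.9% of all 13241 genes tested, and 18.0% were below. The median log2 fold change of the 10 was 0.17, against 0.01 over all genes. By limma with Benjamini-Hochberg adjustment 0 of all genes passed (0.0% of genes lower or higher), with 913 higher and 990 lower (7.48%) at an unadjusted p under 0.05. Of the 10 genes 3 (Cdc6, Tyms and Mcm7) were among the 6.9% higher at that level. By edgeR's quasi-likelihood test 0 passed, with 804 higher (6.07%, among them 3 of the 10) and 1040 lower (7.85%) at an unadjusted p under 0.05. By DESeq2 1035 passed, among them Cdc6 (adjusted p = 0.0244) and Tyms (adjusted p = 0.0286), and 2.95% of all genes were higher. The MEF libraries held 36415586 to 37695116 gene reads. Values are reads divided by a size factor for each library.

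Cdc6 had 2082 and 2028 normalized reads in G2A MEFs 1 and 2, against 1655, 1590 and 1429 in WT MEFs 1, 2 and 3, the largest log2 fold change of the 10 (0.40, SE 0.12, limma adjusted p = 0.291). Mcm7 had 15123 and 13634 normalized reads in G2A MEFs and 11274, 11060 and 12228 in WT MEFs (0.32, SE 0.12, adjusted p = 0.330). Tyms had 4165 and 4081 normalized reads in G2A MEFs and 3337, 3202 and 3489 in WT MEFs (0.30, SE 0.10, adjusted p = 0.303). For these 3 genes both G2A libraries lay above all WT libraries. Mcm3 had 13161 and 12071 normalized reads in G2A MEFs and 11456, 11660 and 10476 in WT MEFs (0.17, SE 0.11, adjusted p = 0.513), a narrower gap.

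Pcna went the other way, with 13072 and 12497 normalized reads in G2A MEFs against 16655, 14286 and 13675 in WT MEFs (log2 fold change -0.21, SE 0.13, limma adjusted p = 0.490). Rrm2 had 10531 and 11009 normalized reads in G2A MEFs, against 11549, 12251 and 4769 in WT MEFs. Its WT MEF 3 lay far below the other libraries, and the sign of its log2 fold change rested on that library (0.30, SE 0.44, adjusted p = 0.770; without WT MEF 3 -0.14, adjusted p = 0.274). The remaining subunits overlapped between genotypes. Mcm2 had 12236 and 11571 normalized reads in G2A MEFs and 13359, 13077 and 11914 in WT MEFs (-0.10, adjusted p = 0.693). Mcm4 had 12985 and 12176 in G2A MEFs and 13706, 12567 and 11010 in WT MEFs (0.02, adjusted p = 0.947). Only 1 library, WT MEF 3, was below both G2A MEFs for Mcm4. Mcm5 had 12074 and 11135 normalized reads in G2A MEFs and 11374, 11231 and 8584 in WT MEFs (0.17, adjusted p = 0.649). Mcm6 had 12800 and 13226 in G2A MEFs and 12995, 12128 and 14780 in WT MEFs (-0.03, adjusted p = 0.934). WT MEF 3 was the lowest library for Mcm5 and the highest for Mcm6.

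**Figure D3:**
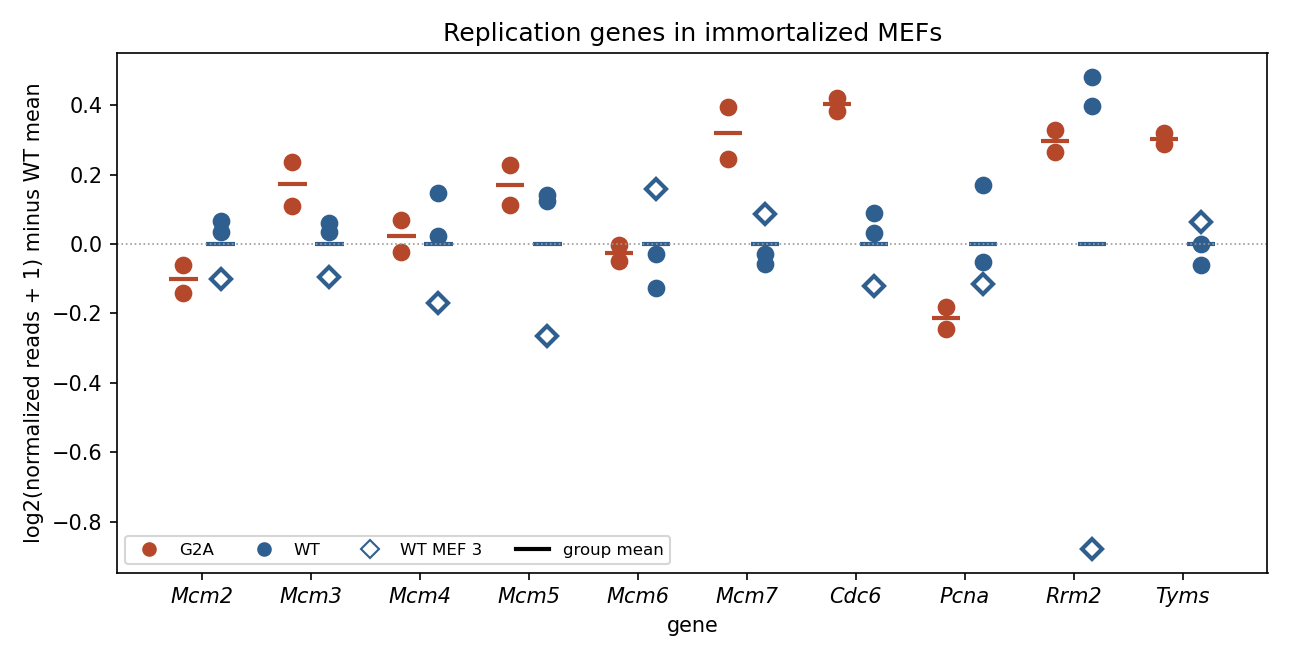
Each gene's log2(normalized reads + 1) in each MEF library, minus the mean of the 3 WT MEFs (vertical axis), with the 2 G2A libraries left of the 3 WT libraries and bars at the group means. Mcm3, Mcm7, Cdc6 and Tyms lie above WT in both G2A libraries, Pcna lies below, and WT MEF 3 (open diamond) is far from the other WT libraries for Rrm2.

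WT MEF 3 stood apart over all genes as well. Its score on the first component was -72.5, beside G2A MEFs 1 and 2 at -51.5 and -55.2 and far from WT MEFs 1 and 2 at 87.2 and 92.0. Without it the median of the 10 genes was 0.04 and 3 genes passed: Mcm7 (log2 fold change 0.36, limma adjusted p = 0.0437), Cdc6 (0.34, adjusted p = 0.0496) and Tyms (0.34, adjusted p = 0.0392), when 11.7% of all genes were higher. The direction of Mcm4 and Mcm6 turned as well. With libraries weighted by limma 3 of the 10 were higher and 1, Pcna, was lower (23.8% and 22.5% of all genes). The weights were 3.52, 0.486 and 0.120 for WT MEFs 1, 2 and 3. The weighted WT level therefore rested mostly on WT MEF 1. Markers of fibroblasts were abundant in all MEF libraries, but 6 of 10 were below WT in both G2A libraries, and the list summed to 519513 and 516315 normalized reads in G2A MEFs, against 1283428, 1058931 and 678014 in WT MEFs. The list of mesenchyme markers, which shares its collagens and receptors, was below WT for 4 of 8. Dlk1, listed with the hepatoblast markers and also made by mesenchymal cells, had 4164 and 7643 normalized reads in G2A MEFs, against 614, 210 and 32015 in WT MEFs. Of defining markers of other cells, Gata1, Slc4a1 and Epb4.2 (erythroid), Emcn (endothelial) and Myod1 (muscle) were at 0 in every MEF library. Above WT in both G2A MEFs were 3 of 6 epithelial markers, 2 of 11 erythroid, 2 of 11 hepatoblast, 2 of 6 macrophage and 1 of 5 endothelial markers, against 18.9% of all genes, and 1 epithelial and 1 hepatoblast marker were below. Krt18 had 169 and 204 normalized reads in G2A MEFs, against 0, 3 and 25 in WT MEFs, and Krt19 had 3439 and 3335 in G2A MEFs, against 1310, 1953 and 1515 in WT MEFs. Cdh1, the epithelial marker below WT, had 15.8 and 15.7 normalized reads in G2A MEFs, against 42.2, 43.8 and 172 in WT MEFs. Epcam and Cldn4 overlapped. The epithelial list, most of whose reads were those of Krt19, summed to 3662 and 3574 normalized reads in G2A MEFs, against 1361, 2019 and 1735 in WT MEFs. No marker tested passed limma's test in MEFs. The part of the makeup of the cultures in the differences of the 10 genes was not tested.

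Counted per kilobase of annotated exon, Pcna was again highest and Tyms and Cdc6 were lowest in MEFs. These levels and their order depend on the annotated lengths, which were longest for Tyms (6089 bp) and Cdc6 (5229 bp). The length of the transcripts made in MEFs was not measured. Pcna averaged 5327 normalized reads per kilobase in G2A MEFs and 6197 in WT MEFs, Tyms 677 in G2A MEFs and 549 in WT MEFs, and Cdc6 393 in G2A MEFs and 298 in WT MEFs. The 6 ring subunits and Rrm2 lay between, at 2980 to 4218 per kilobase in G2A MEFs and 2603 to 3793 in WT MEFs, with many neighbours overlapping. The ratio of the highest to the lowest ring subunit was 1.50 and 1.33 in G2A MEFs, against 1.56, 1.56 and 1.44 in WT MEFs. Mcm7 had the lowest level of the ring in WT MEFs 1 and 2 and the highest in 5 of 6 livers.

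The difference of the G2A effect between liver and MEFs was tested over the 10818 genes measured in both, which share no library. Tyms (liver minus MEF log2 difference -0.66, SE 0.12, adjusted p = 0.0350), Cdc6 (-0.77, SE 0.15, adjusted p = 0.0382) and Mcm7 (-0.68, SE 0.14, adjusted p = 0.0456) passed, by the ratio of the difference to the combined limma standard error. For these 3 genes, and also for Mcm3, all G2A livers were below and all G2A MEFs were above their WT libraries. Without overlap, 15.7% of all genes were below in liver and 18.9% above in MEFs, and the share with both was not counted. Over all genes 239 passed, and 0.869% had a lower effect in liver. Mcm3 (-0.53, adjusted p = 0.0765), Mcm5 (-0.59, adjusted p = 0.115) and Rrm2 (-0.88, SE 0.46, adjusted p = 0.297) did not pass. For Mcm2, Mcm4, Mcm6 and Pcna the difference was -0.30 to -0.23, with adjusted p of 0.287 to 0.370. The calls of the 3 genes were lost when any of liver G2A 1, liver G2A 2, liver WT 2, liver WT 3, MEF G2A 1, MEF G2A 2 or MEF WT 1 was left out, and without a variance trend in limma (0 of the 10 passed). Without MEF WT 2 the call of Mcm7 was lost (adjusted p = 0.0524). With quantile normalization 1 call remained, that of Cdc6. Without WT MEF 3, 5 of the 10 passed, and 15.5% of all genes had a lower effect in liver. Without G2A liver 3, 4 passed, against 3.67% of all genes.

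**Figure D4:**
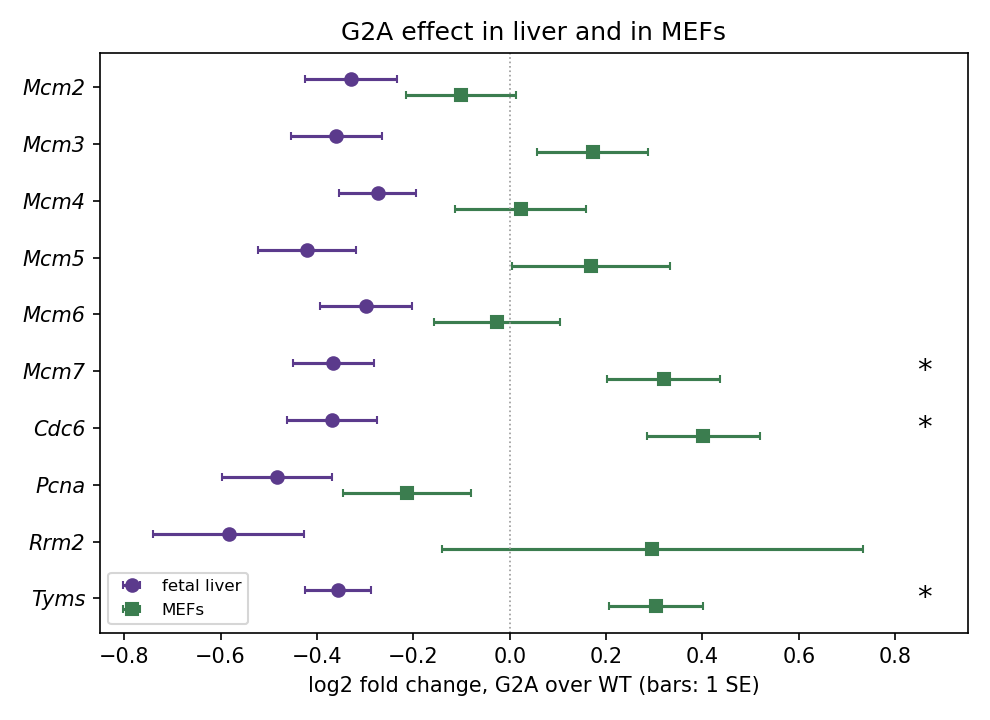
Log2 fold change of G2A over WT (horizontal axis, bars of 1 SE) of the 10 genes in fetal liver and in MEFs, with an asterisk where the difference between tissues passed at an adjusted p under 0.05. The liver values lie between -0.58 and -0.27, and Mcm7, Cdc6 and Tyms carry the asterisk.

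The wider replication and cell cycle machinery was read from 8 lists of 108 genes, also chosen with earlier results of these data known. In liver 104 were tested and 0 passed limma's test. Of these, 95 had a log2 fold change below 0, against 47.3% of all genes, 69 were below WT in all G2A livers (all genes 15.7%) and 3 were above (all genes 11.8%). Without G2A liver 3, 59 were lower and 1, Cdkn1b, was higher (all genes 12.0% and 12.4%). The 59 included Chaf1b, Fen1, Orc6, Orc5, Mcm10, Gins1, Gins4, Pold2, Pola2, Tk1, Dtymk, E2f1, Ccne1, Cdk1 and Birc5, but not Mcm8. Factors of the replication fork and lagging strand were below WT without overlap most often, 17 of 19, with a median of -0.31. Chaf1b, a subunit of the assembly factor that places histones behind the fork, had 27.1, 26.3 and 28.8 FPKM in G2A livers and 35.9, 42.6 and 38.5 FPKM in WT livers (-0.49, limma adjusted p = 0.0902). Fen1, which trims Okazaki fragments, had a log2 fold change of -0.45 (adjusted p = 0.103).

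Of origin recognition and loading genes 6 of 9 were below WT in all G2A livers (median -0.27). Orc6 had 64.4, 60.3 and 66.1 FPKM in G2A livers and 79.4, 80.0 and 79.8 FPKM in WT livers (log2 fold change -0.32, limma adjusted p = 0.0902), and Orc5 was at -0.33 (adjusted p = 0.0953). Of the MCM relatives 2 of 3 tested were below, Mcm10, a factor of helicase activation, at -0.34 (adjusted p = 0.164) and Mcm8 at -0.12 (adjusted p = 0.364). Of 12 helicase activation genes 7 were below (median -0.26), among them the GINS subunits Gins1 (-0.42, adjusted p = 0.0902) and Gins4 (-0.32, adjusted p = 0.0902). The order of the G2A livers was not the same for all: Gins1 had 41.4, 37.2 and 39.8 FPKM in G2A livers 1, 2 and 3, against 49.8, 54.5 and 55.1 FPKM in WT livers, so its level in G2A liver 3 was not above the other G2A livers.

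Among 12 polymerase subunits 9 were below WT and 1, Pold4, was above (median -0.27). Pold2, a subunit of polymerase delta, had 50.3, 50.4 and 49.5 FPKM in G2A livers and 61.3, 64.1 and 65.9 FPKM in WT livers (log2 fold change -0.34, limma adjusted p = 0.0902), and Pola2 of the primase complex was at -0.38 (adjusted p = 0.0902). Pold4 had 12.0, 14.6 and 14.7 FPKM in G2A livers and 10.1, 11.6 and 11.2 FPKM in WT livers (0.30, adjusted p = 0.171). Of 14 genes of nucleotide supply 9 were below and 1 above (median -0.33). Tk1, the salvage kinase of thymidine, had 76.1, 73.7 and 77.7 FPKM in G2A livers and 95.2, 104.7 and 102.2 FPKM in WT livers (-0.40, adjusted p = 0.0902), and Dtymk, the kinase of thymidylate, was at -0.35 (adjusted p = 0.0902). Rrm2b, the p53-inducible small subunit of ribonucleotide reductase, was above WT in all G2A livers (0.12, adjusted p = 0.470), with 2.71, 2.61 and 2.69 FPKM in G2A livers and 2.15, 2.38 and 2.59 FPKM in WT livers. Pold4, Rrm2b and Cdkn1b are the 3 listed genes above WT, and were named for this after their values were seen.

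Of 23 tested genes of G1 to S control 10 were below WT in all G2A livers and 1 was above (median -0.16). E2f1, an activating E2F, had 23.8, 23.9 and 27.5 FPKM in G2A livers and 30.9, 33.0 and 35.6 FPKM in WT livers (log2 fold change -0.39, limma adjusted p = 0.104), and Ccne1, cyclin E1, was at -0.47 (adjusted p = 0.114). Cdkn1b, which encodes the cyclin-dependent kinase inhibitor p27, had 32.6, 33.8 and 26.8 FPKM in G2A livers and 24.7, 20.2 and 25.7 FPKM in WT livers (0.39, adjusted p = 0.160). E2f2, named after its values were seen, overlapped: it had 30.6, 25.9 and 64.5 FPKM in G2A livers and 67.5, 49.1 and 80.4 FPKM in WT livers (-0.78, adjusted p = 0.269). Its level in G2A liver 3 was more than that of the other G2A livers together. Of 12 mitosis genes 9 were below (median -0.30), among them Cdk1 (-0.28, adjusted p = 0.0902) and Birc5, survivin (-0.43, adjusted p = 0.0902).

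In MEFs 107 of the listed genes were tested, 0 passed limma's test, 30 were below 0 (all genes 48.4%), 31 were above WT in both G2A libraries (all genes 18.9%) and 5 were below (all genes 18.0%). Without WT MEF 3, 15 were higher and 5 lower (all genes 11.7% and 11.5%). The 15 included Gins2, Rfc2, Rnaseh2a, Tk1, Dctpp1, Pola2 and Ccnb2, and the 5 included Cdkn1b. Fork and lagging strand genes were above without overlap most often, 10 of 19 (median 0.18). Rnaseh2a, a subunit of ribonuclease H2, was at a log2 fold change of 0.49 (limma adjusted p = 0.279) and Rfc2, of the loader of PCNA, at 0.45 (adjusted p = 0.269). Gins2 had 3108 and 3126 normalized reads in G2A MEFs and 2102, 1946 and 2319 in WT MEFs (0.56, adjusted p = 0.269), and Gins4 was at 0.27 (adjusted p = 0.366). These 2 belonged to the helicase activation list, in which 5 of 13 were above and 0 below (median 0.09). Tk1 had 8058 and 7532 normalized reads in G2A MEFs and 5754, 6035 and 4013 in WT MEFs (0.59, adjusted p = 0.316), and Dctpp1, a nucleotide pyrophosphatase, was at 0.49 (adjusted p = 0.280), with 5 of 14 nucleotide supply genes above and 1 below (median 0.27).

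For the lists that follow, the shares of all genes without overlap were 18.9% above and 18.0% below WT in MEFs. The loading genes had 3 of 9 above WT in MEFs (median 0.04), with Orc6 at a log2 fold change of 0.30 (limma adjusted p = 0.310) and Cdt1 at 0.26 (adjusted p = 0.345). The polymerases had 3 of 12 above (median 0.05), with Pola2 at 0.33 (adjusted p = 0.303) and Pold2 at 0.34 (adjusted p = 0.313). Of 3 MCM relatives Mcm10 was above (0.31, adjusted p = 0.502), and Mcm9 overlapped (-0.14, adjusted p = 0.709). G1 to S control had 2 of 25 above and 4 below (median -0.03, and -0.22 without WT MEF 3). Cdkn1b had 2189 and 2062 normalized reads in G2A MEFs and 3927, 3044 and 3451 in WT MEFs (-0.70, adjusted p = 0.269), the opposite sign from liver. Cdkn2b, the inhibitor p15, had 1503 and 1253 normalized reads in G2A MEFs and 1920, 1736 and 2424 in WT MEFs (-0.55, adjusted p = 0.311). Both inhibitors were below all WT libraries in both G2A MEFs. E2f2 had 893 and 913 normalized reads in G2A MEFs, against 259, 256 and 1187 in WT MEFs, where WT MEF 3 was above both G2A libraries (1.07, adjusted p = 0.519). The mitosis list had 2 of 12 above, no larger a share than over all genes, and 0 below. Its median was 0.18, and -0.02 without WT MEF 3, with Ccnb2 at 0.46 (limma adjusted p = 0.316) and Birc5 at 0.59 (adjusted p = 0.348). Relative to the WT mean that list averaged 0.14 and 0.26 in G2A MEFs, against 0.16, 0.32 and -0.48 in WT MEFs.

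**Figure D5:**
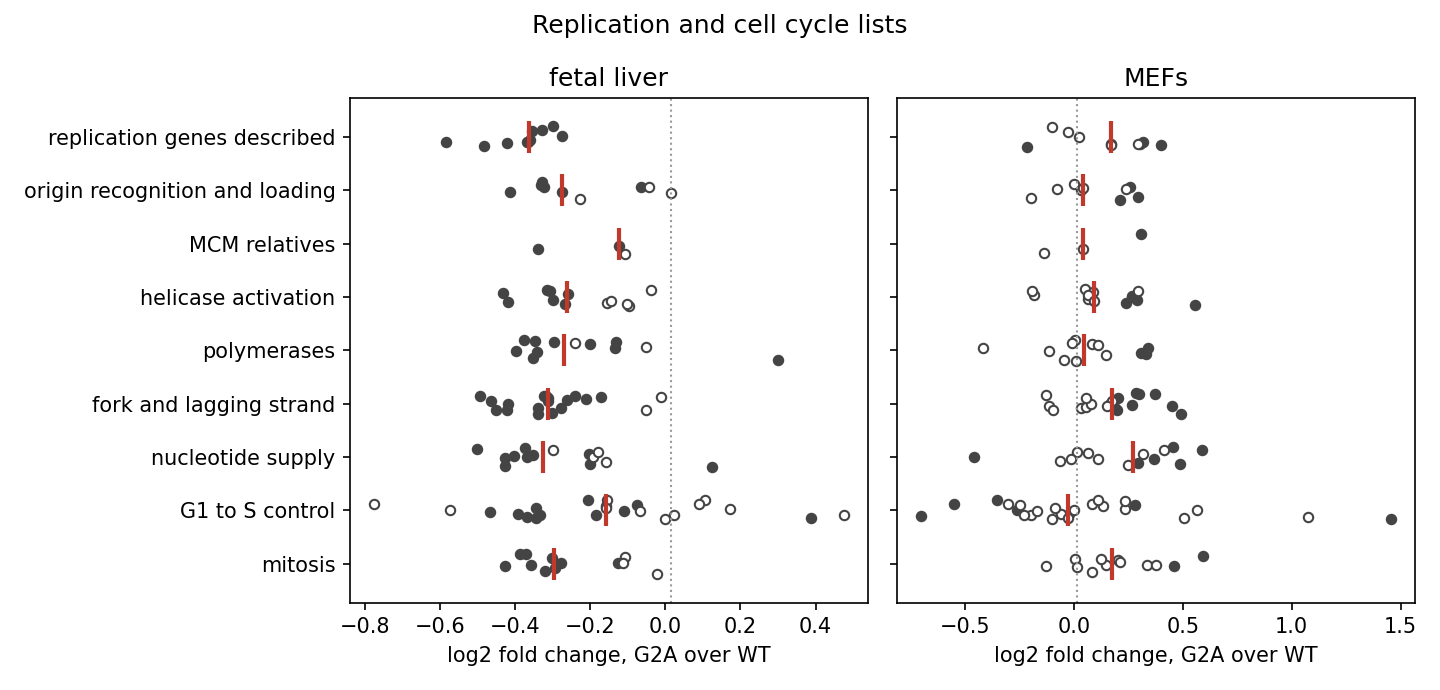
Log2 fold change of G2A over WT (horizontal axes) of each tested gene of the 10 replication genes and the 8 lists in fetal liver and in MEFs, with filled points where the groups do not overlap, open points where they do, a red bar at each list's median and a dotted line at the median of all genes. In liver 95 of 104 listed genes lie below 0, and in MEFs 30 of 107.

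The genes with the pattern most like the mean of the 10 over the 6 liver libraries, among 9460 genes with a mean of at least 5 FPKM, were Nek2, a centrosome kinase (Pearson r = 0.999), Abcg4 (0.999), Rpa1, which coats single-stranded DNA (0.998), Atp5d, of the mitochondrial ATP synthase (0.997), and Vrk1, a chromatin kinase (0.997). Nek2 had 17.2, 16.5 and 20.2 FPKM in G2A livers and 22.0, 24.7 and 23.7 FPKM in WT livers. Over the 5 MEF libraries, among 11498 genes with a mean of at least 50 normalized reads, they were Sbf1 (0.998), Fnta (0.997), Fth1 (0.997), Smc1a of cohesin (0.997) and Fbxo31 (0.996). No gene was in both. These are the highest of many correlations over few libraries, given with no test.

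Psmc1, the gene of the allele, had 151.5, 144.7 and 160.8 FPKM in G2A livers and 178.5, 181.4 and 177.9 FPKM in WT livers (log2 fold change -0.23, limma adjusted p = 0.114). In MEFs it had 10658 and 10913 normalized reads in G2A libraries and 7393, 8589 and 6485 in WT libraries (0.54, adjusted p = 0.282). Its level does not check the genotype labels, since the allele changes a codon. Mcm7 overlaps Cops6 by 64 bp and Ap4m1 by 421 bp on the other strand, and Mir25, Mir93 and Mir106b on its own, and Tyms overlaps Gm17448 on the other strand. The sources used here do not say whether reads were counted by strand, so values of Mcm7 and Tyms may include reads of those neighbours.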

How the data were processed

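Per the labels' protocols, Trizol RNA was sequenced by BGI, and reads cut to 50 bp were aligned to mm9 with TopHat 2.1.1. TopHat2 2.1.1, Cufflinks 2.2.1, mm9 and mm10 stand in the submitters' processing notes. The deposited liver values were read as FPKM from that tool and from their range; their header names no unit. The deposited MEF signal proved to be whole reads over a library size factor (0.958 to 1.06; 100% of values whole within 0.01). The sources used here do not give the counting tool or strand.

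Within each tissue log2(value + 1) was fitted with limma 3.58.1 in R 4.3.3 (variance trend, two-sided, Benjamini-Hochberg, 0.05). Genes needed an FPKM of at least 1 in at least 3 liver libraries, or 10 normalized reads in at least 2 MEF libraries; all 10 passed both. The difference of the effects was divided by the standard error of that difference, with degrees of freedom after Satterthwaite. The recovered read counts were also tested with edgeR 4.0.16 and DESeq2 1.42.0. The fits were also run on simulated data, whose outcome is not given here, and no result above rests on it. Named genes were the 10, Psmc1, from each list the 2 with the smallest p per tissue (none passed), and the 5 most alike per tissue; exceptions are marked. The 10 genes and the lists were chosen with earlier results of these data known. Listed genes absent or below the filter were Mcmdc2, Ticrr, Cdkn2a and Cdkn2b in liver and Mcmdc2 in MEFs. Gene positions and exon lengths are from an annotation of NCBIM37.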

Additional observations from a re-analysis of the deposited data

Results flagged for a closer look

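Tyms, Cdc6 and Mcm7 differed between the tissues in their G2A effect, by the test of the difference itself. The liver minus MEF log2 difference was -0.66 for Tyms, with an effect of -0.36 in liver and 0.30 in MEFs. It was -0.77 for Cdc6, with -0.37 in liver and 0.40 in MEFs. It was -0.68 for Mcm7, with -0.37 in liver and 0.32 in MEFs. For all 3 genes, each of 3 G2A livers lay below and each of 2 G2A MEFs above every WT library of its tissue. Mcm3 was separated in the same way, but its difference did not pass that test (adjusted p = 0.0765). Of all genes 15.7% were below WT without overlap in liver and 18.9% were above in MEFs. The share with both was not counted. This separation comes from the same values as the test and is not independent of it. The calls of the 3 genes were lost when any of several single libraries was left out, and without a variance trend.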

How the results depend on the processing

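In liver the sign of the 10 genes held under every alternative tried. All 10 passed with library weights (6057 genes in all) and without G2A liver 3; with each library left out in turn, 2 to 3152 genes and 0 to 10 of the 10 passed. In MEFs 6124 genes and 4 of the 10 passed with library weights (median of the 10 0.025), 1035 and 2 with DESeq2, and 0 to 3075 and 0 to 3 with libraries left out. The sign of Mcm4, Mcm6 and Rrm2 in MEFs turned with library weights (-0.10, 0.0081 and -0.074) and moved between -0.062 and 0.096, -0.091 and 0.052, and -0.14 and 0.54 with libraries left out; the other 7 kept theirs. For the difference between tissues, 1 of the 10 passed with quantile normalization, 0 without a variance trend (19 genes), and 0 to 5 (2 to 3260 genes) with libraries left out. These causes were not tested. The labels do not say that sample numbers mark the littermate pairs of livers, and the deviations of same-numbered samples correlated at 0.18, -0.099 and 0.099 in liver and 0.13 and -0.033 in MEFs, so the numbers were not used as pairs. With the number as a replicate block 2 genes and 0 of the 10 passed in liver, and 3707 genes and 2 of the 10 (Mcm7 and Tyms) in MEFs, where Mcm4, Mcm6 and Rrm2 turned sign (-0.062, 0.052 and -0.14); WT MEF 3 is alone in its block and so drops out, which gives the same fold changes as leaving it out; the block changed no other call of the 10. Liver depth is unknown, and 2 G2A libraries limit the MEF tests.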
